A study of Mus musculus with 12 samples.

Results

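The full conversion cocktail called SDDIR was compared with the conversion factors alone, called NIL, in primary mouse embryonic fibroblasts. All libraries whose labels give these treatments and that had a column of their own were used, which left 5 of the 11 libraries in the table: NIL A, B and C and SDDIR A and B. The heading of SDDIR B stood on 2 columns with identical values, which were counted once. The table does not settle whether those values belong to replicate B or C, and the third SDDIR sample was not analysed here.

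Every group carried the Hb9::GFP genotype, a reporter of the motor neuron gene Mnx1, and received a retrovirus encoding Ngn2 (gene symbol Neurog2), Isl1 and Lhx3 linked by 2A peptides (NIL). NIL cells received no other virus and were sorted as live single cells. SDDIR cells also received a retrovirus encoding a SNAP tag fused to p53DD, followed by an IRES and HRAS(G12V), were given RepSox from day 3 after infection, and were stained for the SNAP tag and sorted as positive. Both groups moved to N3 medium with the growth factors BDNF, GDNF, CNTF and FGF on day 3 and were collected on day 4, and RNA came from 50000 sorted cells. The comparison therefore sums p53DD, HRAS, RepSox, the second virus and the SNAP stain and sort, whose effects cannot be told apart in it. The other groups of the series, SDD (the SNAP-p53DD virus without HRAS) and RISDD (HRAS before the IRES and SNAP-p53DD after it), had RepSox and the SNAP sort too. Their libraries entered the same fit, so they helped to set the spread behind the p-values of SDDIR against NIL. Their values are given below only to place those of SDDIR.

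p53DD is a dominant-negative fragment that blocks p53, a transcription factor that halts division and promotes death in stressed cells. HRAS(G12V) is a constitutively active form of HRAS, which drives the RAF, MEK and ERK kinase cascade. An IRES lets ribosomes start inside a transcript and usually gives less protein than the first frame. RepSox inhibits the type I receptor of TGF-beta, a signal that in fibroblasts drives matrix and contractile genes.

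The recovered reads were between 14872639 (SDDIR B) and 29815073 in the 11 libraries. NIL C stood apart from NIL A and NIL B: genes encoded in mitochondria took 0.537% of its signal, against 3.62% and 4.00% in NIL A and B and 3.73% and 3.70% in SDDIR A and B. Where leaving out a NIL or SDDIR library moved a list's count or a fitted fold by over 1.5 times, the moved value is given beside it, apart from some counts of 3 or fewer genes. Values below are the deposited scaled gene counts, listed in the order A, B and C for NIL and A and B for SDDIR. Fold changes are on the log2(value + 1) scale, errors are standard errors (SE) of the log2 difference, and adjusted p-values are from limma with Benjamini-Hochberg adjustment over 14207 tested genes. A gene passed when its adjusted p was under 0.05. The labels call the samples biological replicates but name no cultures. The spread that the p-values measure is that between libraries within all 4 groups and may be technical.

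The targeted gene was checked first. The row of Trp53, which also counts the p53DD fragment, held 2873, 3058 and 3674 in NIL and 29277 and 37068 in SDDIR. Both SDDIR libraries lay far above all NIL libraries, 10.3-fold (log2 difference 3.37 ± 0.16, adjusted p = 1.82e-06). Hras stood at 1238, 1129 and 2342 in NIL and at 911 and 933 in SDDIR (adjusted p = 0.0653), so this row did not show the added HRAS. The 3 conversion factors had a lower mean in SDDIR than in NIL. Isl1 was 106246, 112049 and 163542 in NIL and 74614 and 95718 in SDDIR (1.48-fold lower, adjusted p = 0.0523). Neurog2 was 59695, 58398 and 167282 in NIL against 39669 and 52579, and Lhx3 was 100451, 102271 and 258391 against 70972 and 96814. Neither Neurog2 (adjusted p = 0.101) nor Lhx3 (adjusted p = 0.129) passed. The groups did not overlap for any of these 3 genes, which was also so for 55.4% of all tested genes. Without NIL C, Isl1 and Neurog2 passed as lower, and so did Hras. In place of 0 of the delivered genes, 2 passed as lower without NIL A and 3 without NIL B.

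Of the 14207 tested genes 4759 changed between SDDIR and NIL (33.5%), 2175 higher in SDDIR (15.3%) and 2584 lower (18.2%). By 2-fold or more 2885 changed (20.3%), 1226 higher (8.63%) and 1659 lower (11.7%). The libraries of the groups did not overlap for 55.4% of the tested genes. The median log2 difference over all tested genes was 0.033. The largest rises included the desmosome gene Dsg2, the epithelial keratin genes Krt8 and Krt18, a NOTCH target and a WNT ligand. The largest falls included matrix, complement and macrophage genes and the P-cadherin gene Cdh3. Other epithelial genes, among them Dsp, Krt19 and Jup, fell and are given below.

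Dsg2, which encodes a cadherin of desmosomes, rose from 2.44, 6.69 and 0 in NIL to 727 and 881 in SDDIR (269-fold, log2 difference 8.07 ± 0.65, adjusted p = 2.30e-05, or 432-fold without NIL B and 156-fold without NIL C). Krt8 and Krt18 encode the paired keratins of simple epithelia. Krt8 rose from 13.0, 15.6 and 6.79 to 759 and 1560 (89.3-fold, adjusted p = 6.20e-05), and Krt18 from 36.6, 78.0 and 77.6 to 1621 and 2149 (30.3-fold, adjusted p = 4.35e-05). For all 3 genes the lowest SDDIR library was above the highest NIL library by more than an order of magnitude. Gfi1, a transcriptional repressor best known in blood and inner ear cells, rose from 15.5, 26.8 and 22.3 to 974 and 925 (43.2-fold, adjusted p = 3.84e-06). Hey1, a transcription factor that NOTCH and BMP signals induce, rose from 13.0, 30.1 and 1.94 to 417 and 826 (54.1-fold, adjusted p = 4.57e-04, or 91.5-fold without NIL B and 28.2-fold without NIL C). The WNT ligand gene Wnt7b rose from 18.7, 34.6 and 9.71 to 631 and 856 (37.6-fold, adjusted p = 1.18e-04). The transmembrane collagen gene Col13a1 rose from 26.0, 55.7 and 69.9 to 1244 and 1761 (31.0-fold, adjusted p = 1.21e-05). Col13a1 was the only collagen gene among the 12 largest rises. Crhr1, a receptor for corticotropin-releasing hormone, rose 82.2-fold (adjusted p = 3.67e-05, or 51.4-fold without NIL B), the protocadherin gene Pcdh8 23.1-fold (adjusted p = 1.42e-04) and the spectrin gene Sptbn5 26.3-fold (adjusted p = 5.32e-04, or 16.8-fold without NIL C). The cytokine gene Il27 rose 28.2-fold (adjusted p = 0.00850), 42.8-fold, 44.7-fold and 11.8-fold without NIL A, B or C, and its call was lost without SDDIR A or SDDIR B. The predicted gene Gm10108 was listed at 0, 58.0 and 0 in NIL and at 88.1 and 170 in SDDIR (31.7-fold, adjusted p = 0.0213), a call lost without NIL A, NIL C, SDDIR A or SDDIR B. Its fold was 16.1 without NIL A or NIL C and 123 without NIL B.

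Among the falls, Col14a1, a collagen that coats fibrils, dropped from 2205, 1708 and 2305 in NIL to 28.8 and 43.9 in SDDIR (56.2-fold, log2 difference -5.81 ± 0.23, adjusted p = 7.88e-07). Mfap5, a microfibril gene, dropped from 173, 182 and 233 to 1.69 and 3.56 (55.7-fold, adjusted p = 9.91e-06). The groups were far apart for both genes, and NIL C lay beside NIL A and B. Shisa3, an inhibitor of WNT and FGF receptor maturation, dropped from 304, 476 and 210 to 2.54 and 4.74 (69.4-fold, adjusted p = 1.20e-05). A single read stood for a value of 0.847 in SDDIR A and 1.19 in SDDIR B. The SDDIR values of Mfap5 and Shisa3 thus rest on few reads, and the sizes of their folds are uncertain. C7, a late complement component, fell from 160, 148 and 178 to 0 and 3.56. SDDIR held 3 reads of C7 in all, and its level was 110-fold lower, with an exact 95% interval of 37.3 to 534 that covers counting error only. The fitted fold of C7 was 35.7 without SDDIR A and 163 without SDDIR B. C1qtnf2 and C1qtnf3, which encode secreted proteins of the C1q and TNF superfamily, fell 39.5-fold and 37.7-fold (adjusted p = 7.85e-05 and 2.07e-04), and the P-cadherin gene Cdh3 39.3-fold (adjusted p = 4.96e-04). Without SDDIR A or SDDIR B the folds were 68.1 and 22.9 for C1qtnf2 and 104 and 14.8 for Cdh3. Cx3cr1, Fcrl2, Lyz2 and Csf1r, also among the 12 largest falls, are genes of macrophages and are described with the leukocyte markers.

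**Figure D1:**
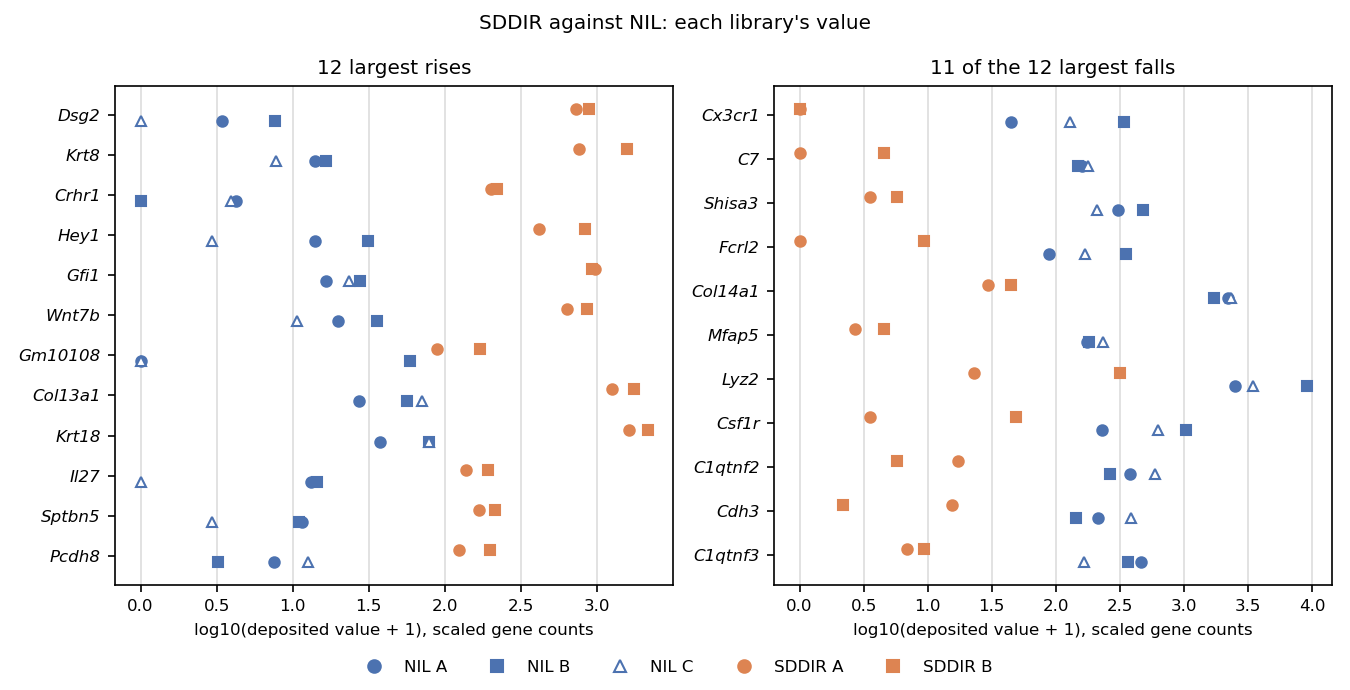
Values of the 12 largest rises (left) and 11 of the 12 largest falls (right) in each NIL and SDDIR library, as log10(deposited value + 1) on the horizontal axis, with circles for A, squares for B and open triangles for NIL C. Only genes whose groups did not overlap could be picked. By that rule the SDDIR points lie to the right of all NIL points for each rise and to the left for each fall. The sizes of the gaps differ, with Dsg2 at 727 and 881 in SDDIR and at most 6.69 in NIL.

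p53 target genes were mostly lower in SDDIR. Of 33 tested members of the list 18 fell and 1 rose (11 fell with only NIL and SDDIR fitted, and 3 rose without NIL C), with a median log2 difference of -0.92. Cdkn1a, which encodes the CDK inhibitor p21, held 17159, 18067 and 20227 in NIL and 2655 and 2517 in SDDIR (7.13-fold lower, log2 difference -2.83 ± 0.20, adjusted p = 1.04e-05). Phlda3, an inhibitor of AKT, fell from 3909, 3622 and 7337 to 474 and 734 (7.96-fold, adjusted p = 6.60e-05). Dcxr, a sugar reductase gene, fell from 547, 544 and 774 to 48.3 and 80.6 (9.68-fold, adjusted p = 3.57e-05). The groups were clearly separate for these 3 targets. The death receptor gene Fas fell from 292, 352 and 125 to 41.5 and 29.6 (6.53-fold, adjusted p = 0.00205). Plk3, a stress kinase gene, was the 1 target that rose with all libraries, from 353, 341 and 559 to 988 and 1154 (2.62-fold, adjusted p = 7.34e-04). Btg2 (adjusted p = 0.462) and Ei24 (adjusted p = 0.136) were the most abundant targets that did not pass.

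In the BCL2 family, whose members control the mitochondrial step of cell death, 3 fell and 2 rose of 15 (5 fell without NIL C, and 0 rose with only NIL and SDDIR fitted). These shares, 20% and 13.3%, were near the 18.2% and 15.3% of all tested genes. The p53 target Bax, which promotes death, fell from 3271, 2982 and 5432 to 1248 and 1238 (3.02-fold, adjusted p = 4.69e-04). The survival gene Bcl2l2 fell 1.99-fold (adjusted p = 4.69e-04), and the most abundant survival genes, Mcl1 and Bcl2l1, did not pass (adjusted p = 0.564 and 0.518). Of 12 CDK inhibitors and senescence regulators 5 rose and 1 fell, the latter being Cdkn1a. The rises numbered 1 without SDDIR A, 2 without SDDIR B, 3 without NIL A and 1 with only NIL and SDDIR fitted. Cdkn2a, which encodes p16 and p19ARF, held 1143, 1351 and 2075 in NIL and 3322 and 4684 in SDDIR (2.67-fold higher, adjusted p = 0.00281). Thus Cdkn2a was above, and Cdkn1a below, every NIL library in both SDDIR libraries.

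Division genes were higher. Of 32 tested G2/M and mitosis genes 31 rose and 0 fell, with a median log2 difference of 1.51 (32 rose without NIL C, and 21 with only NIL and SDDIR fitted). Bub1, a kinase of the spindle checkpoint, rose from 739, 411 and 291 to 2323 and 1968 (4.79-fold, log2 difference 2.26 ± 0.31, adjusted p = 4.87e-04). Kif20b, a kinesin of cytokinesis, rose from 648, 400 and 218 to 1770 and 1557 (4.31-fold, adjusted p = 0.00125). Cenpf, a kinetochore gene, rose from 871, 451 and 607 to 2514 and 2295 (3.87-fold, adjusted p = 4.76e-04). NIL A was the highest NIL library for each of these genes, and all SDDIR values lay above all NIL values. Cenpe, a kinetochore motor, rose 3.74-fold (adjusted p = 4.69e-04), and Aurkb, the 1 member that did not pass, held 699, 367 and 899 in NIL and 1216 and 1075 in SDDIR (adjusted p = 0.0590). Of 32 G1/S and replication genes 13 rose and 1 fell (20 rose without NIL C, 21 with array weights, 7 or 6 without SDDIR A or B and 5 with only NIL and SDDIR fitted). Mcm10, a replication initiation gene, rose from 404, 317 and 445 to 1160 and 1261 (3.14-fold, adjusted p = 5.82e-05). Prim1, a primase subunit, rose 2.81-fold (adjusted p = 0.00105). The clamp gene Pcna held 3660, 2911 and 3223 against 4057 and 4013 (adjusted p = 0.0837), and the helicase gene Mcm6 did not pass either (adjusted p = 0.817).

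The promoters of these division genes are shown because they moved together. Many G2/M genes carry a short element named CHR (cell cycle genes homology region), with the letters TTTGAA or TTCGAA. Of the 32 tested members, 28 matched a promoter window in RefSeq (GRCm38.p6, 250 bases before to 50 after the start), and 21 of the 28 (75.0%) held TTTGAA on either strand, against 20.2% of 27025 genes with a window. TTCGAA was in 3 of the 28 (10.7%), against 1.80% of all. The lines below give the 100 bases before to 25 after the start on the gene's strand, with the match in capitals, for the 3 genes that led the list. A match describes the letters and is no test of binding. Here and below, the list members were tested genes, while the 27025 genes were not limited to those tested.
Bub1, chr2:127831835-127831959, minus strand: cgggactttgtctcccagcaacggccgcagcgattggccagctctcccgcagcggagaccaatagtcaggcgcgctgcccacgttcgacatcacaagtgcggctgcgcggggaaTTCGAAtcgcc
Kif20b, chr19:34922258-34922382, plus strand: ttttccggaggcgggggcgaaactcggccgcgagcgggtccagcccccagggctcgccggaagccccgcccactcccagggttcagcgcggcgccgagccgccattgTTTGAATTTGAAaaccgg
Cenpf, chr1:189688062-189688186, minus strand: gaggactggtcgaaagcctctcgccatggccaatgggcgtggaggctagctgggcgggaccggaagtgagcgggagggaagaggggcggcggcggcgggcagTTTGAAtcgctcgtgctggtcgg

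Genes of cholesterol synthesis rose almost as a whole. Of 25 tested members 22 rose and 0 fell, with a median log2 difference of 1.85 (16 rose with only NIL and SDDIR fitted). Msmo1, a sterol oxidase gene, rose from 312, 385 and 135 to 3040 and 2730 (11.3-fold, log2 difference 3.50 ± 0.35, adjusted p = 7.97e-05). Idi1, an isomerase of the isoprenoid step, rose from 269, 271 and 90.3 to 1507 and 1593 (8.23-fold, adjusted p = 3.25e-04). The SDDIR libraries were close to each other for both enzymes, while NIL C was the lowest NIL library. The sterol carrier gene Stard4 rose from 369, 282 and 217 to 1906 and 1650 (6.25-fold, adjusted p = 1.67e-05). Mvk (adjusted p = 0.395) and Ebp (adjusted p = 0.156) were among the 3 members that did not pass. Of 15 fatty acid synthesis genes 8 rose and 0 fell (4 rose with only NIL and SDDIR fitted and 5 without SDDIR A). Elovl6, an elongase, rose from 817, 975 and 510 to 2520 and 2934 (3.67-fold, adjusted p = 4.65e-04). The desaturases Scd1 and Fads1 rose 2.80-fold and 2.31-fold (adjusted p = 2.11e-04 and 5.52e-05), while Acly, which makes cytosolic acetyl-CoA, did not pass (adjusted p = 0.398).

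SREBP factors, which induce these enzymes, bind sterol regulatory elements beside sites of NF-Y, whose core is CCAAT. This core was present on either strand in 16 of the 17 cholesterol synthesis genes with a promoter window (94.1%), against 41.1% of all genes. It was also in 21 of the 28 G2/M promoters (75.0%). The letters TCACNCCAC, a sterol regulatory element, were in 1 of the 17 (5.88%), against 1.44% of all. No match of one motif overlapped a match of another in these lists. The 2 members with the largest rises are shown in the same frame, with CCAAT or its reverse complement in capitals.
Msmo1, chr8:64733554-64733678, minus strand: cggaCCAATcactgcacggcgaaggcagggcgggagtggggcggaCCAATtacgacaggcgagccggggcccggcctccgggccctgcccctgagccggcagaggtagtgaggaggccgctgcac
Idi1, chr13:8885506-8885630, plus strand: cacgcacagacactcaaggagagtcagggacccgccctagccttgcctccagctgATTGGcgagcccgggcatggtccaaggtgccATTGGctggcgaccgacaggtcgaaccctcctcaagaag

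Many genes that ERK induces, among them its own inhibitors, rose. Of 20 ERK feedback and output genes 10 rose and 3 fell (5 rose with only NIL and SDDIR fitted), with a median log2 difference of 0.55. Dusp5 and Dusp4 encode phosphatases that inactivate ERK. Dusp5 rose from 514, 640 and 834 to 4939 and 4185 (6.99-fold, log2 difference 2.81 ± 0.19, adjusted p = 9.91e-06), and Dusp4 from 1100, 993 and 1680 to 6587 and 6697 (5.42-fold, adjusted p = 3.57e-05). Both genes were separate between the groups, with SDDIR A and B close together. Il1rl1, the receptor of interleukin 33, fell from 1508, 3335 and 1417 to 88.9 and 205 (14.1-fold, adjusted p = 9.75e-04, or 9.34-fold without SDDIR A and 21.4-fold without SDDIR B), and the ephrin receptor gene Epha4 6.73-fold (adjusted p = 4.06e-04). The cyclin D1 gene Ccnd1 held 25936, 34978 and 34866 against 19634 and 25593 and did not pass (adjusted p = 0.158), nor did the feedback inhibitor gene Spry2 (adjusted p = 0.109).

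Immediate early genes are transcribed within minutes of a signal. In SDDIR 9 of 24 rose and 1 fell (15 rose without NIL C, and 0 fell without SDDIR A or SDDIR B). The orphan nuclear receptor genes of the NR4A family led them. Nr4a3 held 31.7, 22.3 and 26.2 in NIL and 750 and 492 in SDDIR (22.1-fold higher, log2 difference 4.47 ± 0.29, adjusted p = 7.06e-06). Nr4a1 rose from 248, 174 and 401 to 5940 and 4159 (19.1-fold, adjusted p = 1.67e-05), and Nr4a2 7.39-fold (adjusted p = 3.20e-04). Fosb, an AP-1 subunit, rose from 146, 127 and 192 to 1540 and 1145 (8.65-fold, adjusted p = 5.25e-05). The most abundant members behaved otherwise: Egr1 held 17716, 14688 and 21158 against 14735 and 14423 (adjusted p = 0.208), and Jun 3996, 4312 and 7179 against 6418 and 5881 (adjusted p = 0.293). Among ligands and receptors of the EGF receptor family 1 of 11 rose and 1 fell (4 rose without NIL B and 2 without NIL C). The ligand gene Areg rose from 250, 379 and 241 to 2636 and 2992 (9.87-fold, adjusted p = 1.73e-05), and the receptor gene Erbb2 fell from 581, 586 and 1050 to 245 and 263 (2.79-fold, adjusted p = 0.00196). The ligand gene Ereg overlapped, at 1181, 3184 and 747 against 2741 and 2901 (adjusted p = 0.155).

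**Figure D2:**
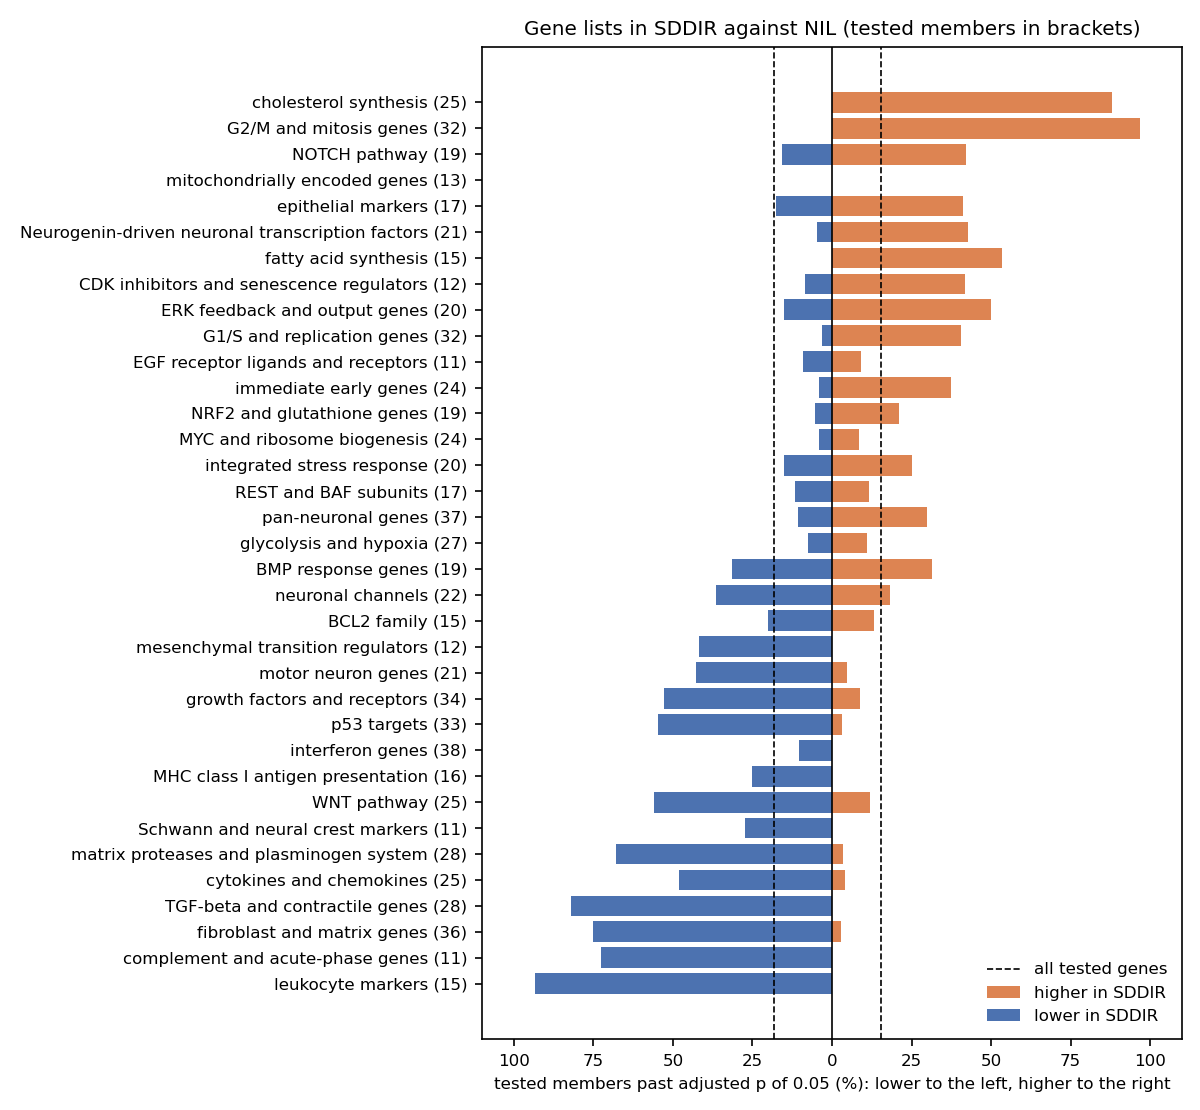
Share of the tested members of each gene list that passed as higher (right, in %) or lower (left, in %) in SDDIR against NIL, for lists with at least 10 tested members, ordered by median log2 difference. The dashed lines mark the shares over all tested genes, 15.3% higher and 18.2% lower; cholesterol synthesis and G2/M genes reach 88.0% and 96.9% to the right, and leukocyte markers 93.3% to the left.

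Fibroblast and matrix genes were lower. Of 36 tested members 27 fell and 1 rose, with a median log2 difference of -1.99. Lox, which crosslinks collagen and elastin, fell from 21301, 21792 and 22036 in NIL to 696 and 739 in SDDIR (30.2-fold, log2 difference -4.92 ± 0.16, adjusted p = 2.21e-07). Mfap4, a microfibril gene, fell from 13044, 6031 and 18990 to 426 and 251 (34.8-fold, adjusted p = 3.45e-05). Dpt, which binds decorin and collagen, fell 16.6-fold (adjusted p = 3.67e-05). The NIL libraries were nearly equal for Lox and differed by a factor of about 3 for Mfap4, and neither gene overlapped between groups. The defining fibroblast markers stayed abundant at lower levels. Col1a1 held 180320, 162150 and 368790 in NIL and 19108 and 18958 in SDDIR (11.6-fold lower, adjusted p = 2.42e-05), and Col1a2 was 3.65-fold lower (adjusted p = 5.25e-05). Pdgfra held 3682, 3048 and 3541 against 2783 and 2833 and did not pass (adjusted p = 0.222). The intermediate filament gene Vim (adjusted p = 0.413) and the matrix gene Fbln1 (adjusted p = 0.838) did not pass either.

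Among 28 TGF-beta targets and contractile genes 23 fell and 0 rose, with a median log2 difference of -1.72. RepSox acts on this pathway, and in this comparison SDDIR received it and NIL did not, so its part cannot be told apart from the viruses. Of the same 28 genes 12 fell in SDD, which also received RepSox, against NIL, where 8.26% of all tested genes fell. In SDDIR against SDD 19 of them fell, where 13.9% of all tested genes fell. Ccn2, a matricellular gene that TGF-beta and YAP induce, fell from 2721, 3294 and 4618 to 130 and 101 (29.9-fold, log2 difference -4.90 ± 0.29, adjusted p = 4.78e-06). The elastin gene Eln fell from 2326, 1509 and 3646 to 87.2 and 77.1 (28.2-fold, adjusted p = 1.29e-05). Tagln, an actin-binding gene of contractile cells, fell from 6468, 5634 and 12853 to 333 and 639 (16.8-fold, adjusted p = 1.14e-04). Ltbp2, of the latent TGF-beta binding family, fell 15.0-fold (adjusted p = 9.50e-06). All 4 genes were separate between groups, and the receptor gene Tgfbr1, at 2519, 2536 and 714 against 2636 and 2667, was not (adjusted p = 0.265). BMP response genes went both ways, with 6 rises and 6 falls of 19 (3 rises with only NIL and SDDIR fitted). The ligand gene Bmp4 fell from 1276, 965 and 1687 to 85.5 and 98.4 (13.8-fold, adjusted p = 2.30e-05) and the antagonist gene Chrd fell 6.62-fold (adjusted p = 1.29e-04). Hey1, given above, also belongs to this list.

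Of 28 matrix proteases and genes of the plasminogen system 19 fell and 1 rose, with a median log2 difference of -1.56. The protease inhibitor genes Serpine2 and Timp1 led. Serpine2 fell from 7499, 8853 and 4913 to 587 and 747 (10.4-fold, adjusted p = 2.30e-05), and Timp1 from 10868, 16134 and 12936 to 1417 and 1495 (9.02-fold, adjusted p = 1.37e-05). The proteases Adam12 and Adamts2 fell 8.96-fold and 7.75-fold (adjusted p = 3.03e-06 and 5.25e-05). Plau, the urokinase gene, held 872, 1641 and 696 against 763 and 708 (adjusted p = 0.269). Of 34 growth factors and receptors 18 fell and 3 rose (10 fell without SDDIR A and 9 with only NIL and SDDIR fitted, and 5 rose without NIL B). The vitamin K-dependent ligand gene Gas6 fell from 2694, 1910 and 3214 to 458 and 410 (5.87-fold, adjusted p = 3.67e-05), Igf2 5.36-fold (adjusted p = 3.16e-04) and the motor neuron survival factor Gdnf 4.61-fold (adjusted p = 5.76e-04). Of 25 WNT pathway genes 14 fell and 3 rose (8 fell without SDDIR A and 7 with only NIL and SDDIR fitted). The antagonist gene Dkk3 and the agonist gene Rspo3 fell 5.27-fold and 5.61-fold (adjusted p = 1.73e-05 and 4.62e-04), and the transcription factor gene Lef1 rose from 14.6, 23.4 and 30.1 to 118 and 143 (5.74-fold, adjusted p = 0.00136).

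Neuronal genes did not move as 1 group. Of 30 transcription factors and other genes downstream of Neurogenin 21 were tested, of which 9 rose and 1 fell, with a median log2 difference of 0.72. Nhlh2, a transcription factor of early neurons, rose from 326, 367 and 215 to 1209 and 1838 (5.04-fold, log2 difference 2.33 ± 0.31, adjusted p = 4.37e-04). The early neuronal factor Sox11 rose from 1872, 1944 and 2099 to 4237 and 4528 (2.22-fold, adjusted p = 2.55e-04). Nhlh1 held 39.9, 71.3 and 22.3 against 98.2 and 295 (4.18-fold higher, adjusted p = 0.0221), and its call was lost without SDDIR B. Its fold was 7.22 without SDDIR A and 2.42 without SDDIR B. In place of 9 members 3 rose without SDDIR B and 4 with only NIL and SDDIR fitted. Sox4 stood at 5526, 6043 and 6351 in NIL and 5508 and 6404 in SDDIR (adjusted p = 0.978).

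Several motor neuron genes fell. Of 26 members 21 were tested, of which 9 fell and 1 rose (0 rose without SDDIR B), with a median log2 difference of -0.69. Chodl, a membrane gene of fast motor neurons, fell from 3562, 1638 and 1657 to 166 and 104 (16.1-fold, log2 difference -4.01 ± 0.51, adjusted p = 3.19e-04). Prph, a filament gene of peripheral neurons, fell from 282, 183 and 389 to 21.2 and 15.4 (14.3-fold, adjusted p = 1.41e-04). Slit3, a guidance ligand that fibroblasts also express, fell 6.99-fold (adjusted p = 7.26e-05), and Ngfr, a neurotrophin receptor, 6.73-fold (adjusted p = 0.00108). Defining markers of mature motor neurons were scarce in both groups: Mnx1 held 15.5, 7.80 and 31.1 in NIL and 12.7 and 7.11 in SDDIR (adjusted p = 0.496), and Chat was at 0 in all 5 libraries. In bulk RNA, fewer cells of a type and less RNA per cell cannot be told apart, here and below.

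Of 40 pan-neuronal genes 37 were tested, of which 11 rose and 4 fell, with a median log2 difference of 0.08 (5 rose with only NIL and SDDIR fitted). The filament gene Nefm rose from 462, 247 and 463 to 1292 and 1201 (3.31-fold, adjusted p = 0.00547), and the granin gene Scg2 from 47.2, 20.1 and 18.4 to 162 and 145 (5.70-fold, adjusted p = 7.60e-04). Elavl4, an RNA-binding gene of neurons, rose from 77.3, 74.7 and 24.3 to 241 and 301 (5.10-fold, adjusted p = 0.00309). The dendritic marker Map2 rose 2.60-fold (adjusted p = 0.00112). Other defining markers did not pass: Tubb3 held 2087, 1349 and 3359 against 1220 and 1868 (adjusted p = 0.301), and Dcx 314, 347 and 78.6 against 28.8 and 94.8 (adjusted p = 0.126). Among 22 tested neuronal channels 4 rose and 8 fell (5 fell without NIL A, NIL B or SDDIR B, and 3 with only NIL and SDDIR fitted). The calcium channel gene Cacna1b rose 3.86-fold (adjusted p = 6.44e-04). In the NOTCH pathway 8 rose and 3 fell of 19 (5 rose without SDDIR B, and 1 fell with only NIL and SDDIR fitted). The ligand gene Jag2 rose from 255, 408 and 755 to 2270 and 2456 (5.50-fold, adjusted p = 8.71e-04), as did Hey1, and Rbpj, the DNA-binding partner of NOTCH, did not pass (adjusted p = 0.0856). Dll1, a ligand gene that Neurogenin induces, rose 3.40-fold (adjusted p = 0.0157), a call lost without SDDIR B.

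Epithelial genes were split. Of 25 members 17 were tested, of which 7 rose and 3 fell (3 rose with only NIL and SDDIR fitted, and 1 fell then or without SDDIR A). Rises made up 41.2% of the tested members, against 15.3% of all tested genes, and falls 17.6% against 18.2%, a like share. The risers were Dsg2, Krt8, Krt18, Pkp1, Dsc2, Pkp3 and Grhl2. The desmosomal linker gene Dsp went the other way, from 840, 882 and 864 to 39.0 and 42.7 (20.6-fold lower, log2 difference -4.37 ± 0.27, adjusted p = 6.60e-06), as did Krt19 and Jup. The desmosomal gene Pkp2, at 197, 144 and 225 against 267 and 311, did not pass (adjusted p = 0.0669). The defining marker Cdh1 held 0, 2.23 and 0 in NIL and 0 and 4.74 in SDDIR, and Epcam at most 11.1 in any of the 5 libraries. The summed level of the list was 3703 to 6663 in NIL and 5276 to 7310 in SDDIR. Of 12 mesenchymal transition regulators 5 fell and 0 rose (3 fell without SDDIR A or SDDIR B). They included the fibronectin gene Fn1 (128352, 154982 and 205090 against 37999 and 51010, 3.63-fold lower, adjusted p = 2.41e-04) and the mesenchymal cadherin gene Cdh11 (2.30-fold lower, adjusted p = 4.06e-04).

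Interferon genes and antigen presentation fell in a few members only. Of 38 tested interferon genes 4 fell and 0 rose, a share of falls under that of all tested genes, with a median log2 difference of -0.92. Ifit3, an antiviral effector, held 1440, 3079 and 1733 in NIL and 722 and 295 in SDDIR (4.27-fold lower, log2 difference -2.09 ± 0.49, adjusted p = 0.00827). The nucleic acid sensor gene Zbp1 held 115, 214 and 199 against 75.4 and 34.4 (3.28-fold lower, adjusted p = 0.00990). Ifit3b, a near-identical copy of Ifit3 between which reads may be split, fell 5.56-fold (adjusted p = 0.0205). The fold of Ifit3 was 6.67 without SDDIR A and 2.73 without SDDIR B. SDDIR B was the lower of the SDDIR libraries for these genes, their calls were lost without it, and no interferon gene passed without it, against 10 falls without SDDIR A. Of 16 genes of class I antigen presentation 4 fell and 0 rose, with 0 falls without SDDIR B and 9 without NIL A. The peptide transporter gene Tap1 held 929, 1063 and 1483 against 449 and 156 (4.27-fold lower, adjusted p = 0.00438, or 7.22-fold without SDDIR A and 2.53-fold, with no call, without SDDIR B), and B2m did not pass (adjusted p = 0.914).

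The core of the interferon-stimulated response element (GAAA, any 2 bases, GAAA) was on either strand in 18 of the 27 tested interferon genes with a promoter window (66.7%), against 3.99% of all genes. Ifit3 is shown as the named antiviral gene of the list, from 170 bases before to 25 after its start, with the reverse complement of the core in capitals.
Ifit3, chr19:34583359-34583553, plus strand: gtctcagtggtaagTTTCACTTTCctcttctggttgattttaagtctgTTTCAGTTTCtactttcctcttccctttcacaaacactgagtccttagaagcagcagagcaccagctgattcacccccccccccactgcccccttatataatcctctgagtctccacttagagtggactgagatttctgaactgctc

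Many cytokine and complement genes fell. Of 25 tested cytokines and chemokines 12 fell and 1 rose (0 rose without NIL A, SDDIR A or SDDIR B), with a median log2 difference of -1.57. Csf1, the macrophage growth factor, fell from 6548, 6813 and 9282 to 567 and 446 (14.8-fold, log2 difference -3.89 ± 0.19, adjusted p = 1.82e-06). Angptl4, a lipase inhibitor, fell from 4301, 5315 and 6314 to 412 and 364 (13.5-fold, adjusted p = 1.20e-05). The chemokine gene Ccl2 fell from 1724, 4789 and 3339 to 428 and 328 (8.04-fold, adjusted p = 0.00382), and Cxcl12 7.07-fold (adjusted p = 1.66e-04). The groups were separate for all 4 genes, whereas Il33 (adjusted p = 0.669) and Cxcl1 (adjusted p = 0.999) overlapped. Of 15 complement and acute-phase genes 11 were tested, and 8 fell and 0 rose. Their median log2 difference was -3.70, or -3.56 with Lbp, at 0 in SDDIR, set to its bound. C1s1, a protease of the classical complement pathway, fell from 610, 571 and 384 to 23.7 and 23.7 (20.7-fold, adjusted p = 2.67e-06), and the pentraxin gene Ptx3 from 441, 334 and 1066 to 28.8 and 32.0 (17.2-fold, adjusted p = 1.42e-04).

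Macrophage markers were low in SDDIR. Of 19 leukocyte markers 15 were tested, and 14 fell and 0 rose, with a median log2 difference of -4.59 (7 fell without SDDIR A and 8 with only NIL and SDDIR fitted). Their summed level was 4599 to 17861 in NIL and 448 and 1213 in SDDIR, and NIL B was the highest library. It was also low in the other groups, at 911 to 2220 in SDD and 1050 to 2028 in RISDD. These groups share p53DD, RepSox, the second virus and the SNAP sort with SDDIR. In SDD against NIL 5 of the 15 fell and 0 rose, where 8.26% of all tested genes fell and 9.32% rose. In SDDIR against SDD 1 fell and 1 rose, where 13.9% of all tested genes fell and 8.66% rose. The chemokine receptor gene Cx3cr1 of macrophages held 43.9, 341 and 128 in NIL and 0 and 0 in SDDIR, at least 105-fold lower against a floor of 3 reads over the group (adjusted p = 0.00138). Lyz2, the lysozyme gene of myeloid cells, fell from 2489, 9056 and 3429 to 22.0 and 318 (49.7-fold, log2 difference -5.64 ± 1.01, adjusted p = 0.00212). Csf1r, the receptor of the Csf1 product, fell from 226, 1037 and 621 to 2.54 and 47.4 (40.3-fold, adjusted p = 0.00238), and Fcrl2, an Fc receptor-like gene, from 87.9, 354 and 168 to 0 and 8.30 (57.3-fold, adjusted p = 7.60e-04). SDDIR B was above SDDIR A for each of the 3, and the folds were 13.4 for Lyz2, 10.9 for Csf1r and 18.8 for Fcrl2 without SDDIR A and 185, 149 and 175 without SDDIR B. Cd68, the exception, held 139, 419 and 281 against 316 and 345 (adjusted p = 0.542). NIL cells were not sorted for a tag and SDDIR cells were sorted for SNAP. The groups also differed in p53DD, HRAS, RepSox and the second virus, and these parts cannot be told apart. The part of macrophages in the falls of cytokine and complement genes was not tested.

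Other cell types were sparse. Of 13 endothelial markers 6 were tested and 2 rose (1 without NIL B, SDDIR A or SDDIR B), and the summed level was 140 to 221 in NIL and 303 and 307 in SDDIR. Cdh5, the endothelial cadherin, held 18.7, 33.4 and 52.4 against 129 and 142 (4.12-fold higher, adjusted p = 0.00385), while Pecam1 was at most 9.32 in any of the 5 libraries. Of 14 Schwann and neural crest markers 11 were tested, 3 fell and 0 rose (5 fell without NIL C and 1 without SDDIR A), and Sox10 held 72.4, 94.8 and 57.3 against 5.93 and 7.11 (9.91-fold lower, adjusted p = 0.0116). Of 16 skeletal muscle markers 5 were tested and 1 rose (0 without NIL A, NIL B, SDDIR A or SDDIR B), and Myod1 was at 0 in all 5 libraries. Of the 13 mitochondrially encoded genes 0 passed in either direction in limma, with a median log2 difference of 0.84. Without NIL C the median was -0.20 and 4 fell.

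The remaining lists moved in few members. Over all tested genes 15.3% rose and 18.2% fell, and in each list below falls were 15% of the tested members or less. Rises were 25% of the integrated stress response list and 21.1% of the NRF2 and glutathione list. In the other lists of this paragraph rises were under 15.3%. Of 27 glycolysis and hypoxia genes 3 rose and 2 fell (9 rose without NIL C, and 4 fell without NIL B). Adm, which encodes the vasodilator adrenomedullin, fell from 358, 321 and 657 to 63.5 and 71.1 (6.21-fold, adjusted p = 7.16e-04), and Pfkfb3, an activator of glycolysis, rose from 676, 779 and 831 to 2000 and 1739 (2.45-fold, adjusted p = 4.91e-04). The glycolytic enzyme genes Pkm and Eno1 did not pass (adjusted p = 0.610 and 0.931). In the integrated stress response 5 rose and 3 fell of 20 (8 rose without NIL C, 1 without SDDIR A, and 0 without SDDIR B or with only NIL and SDDIR fitted), and the transcription factor gene Atf5 fell from 4145, 4168 and 7983 to 1339 and 1582 (3.55-fold, adjusted p = 5.33e-04). Among 24 MYC and ribosome biogenesis genes 2 rose and 1 fell (1 and 0 without SDDIR A or SDDIR B), and Odc1, the first enzyme of polyamine synthesis, rose from 8674, 8784 and 9535 to 20830 and 21515 (2.35-fold, adjusted p = 0.00193). Of 19 NRF2 and glutathione genes 4 rose and 1 fell (2 rose without NIL A or SDDIR A, 1 without SDDIR B, and 0 with only NIL and SDDIR fitted), and Gclc, which starts glutathione synthesis, rose 1.71-fold (adjusted p = 0.00204). REST and BAF subunits had 2 rises and 2 falls of 17 (8 rises without NIL C, 1 without SDDIR B and 0 without SDDIR A), and the ATPase gene Smarca2 fell from 6798, 4877 and 7414 to 1884 and 1963 (3.26-fold, adjusted p = 3.40e-04).

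The values in SDD split the comparison into 2 steps. The first is SDD against NIL, which adds p53DD, RepSox, the sort and the second virus. The second is SDDIR against SDD, which adds HRAS after the IRES. The summed level of the delivered genes also differed, at 310310 to 398850 in SDD and 215440 and 283110 in SDDIR, and its part was not tested. A call in 1 step only does not show that the other had no effect. SDD against NIL changed 2498 genes (17.6%), 9.32% of those tested higher and 8.26% lower. SDDIR against SDD changed 3199 (22.5%), 8.66% higher and 13.9% lower. The 2 steps share the SDD libraries, so no correlation between them was computed. Of the 1226 genes higher by 2-fold or more in SDDIR than in NIL, 368 passed as higher in the first step only, 436 in the second only, 70 in both and 352 in neither. Of the 1659 lower by 2-fold or more these counts were 311, 873, 178 and 297. Cdkn1a was 5.87-fold lower in SDD than in NIL (adjusted p = 3.72e-05) and 1.21-fold lower again in the second step (adjusted p = 0.363). Msmo1 was 1.83-fold higher in the first step (adjusted p = 0.0815) and 6.19-fold higher in the second (adjusted p = 5.54e-04). Col14a1 was 1.57-fold higher in the first (adjusted p = 0.0530) and 88.2-fold lower in the second (adjusted p = 5.34e-07).

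For some genes the steps had opposite signs. The SDD libraries enter the 2 steps with opposite signs, so their spread alone makes opposite calls more likely. Its part in the counts below was not tested. In the first step 452 of the 14207 tested genes rose that fell in the second. Of these 309 had no call between SDDIR and NIL, 127 were lower and 16 higher. Another 242 fell first and then rose, of which 181 had no call, 49 were higher and 12 lower. Nr4a1 held 15997, 10848 and 10508 in SDD, 47.0-fold above NIL (adjusted p = 6.00e-06), and fell 2.46-fold in the second step (adjusted p = 0.0151), which left it above NIL. Ifit3 held 3070, 7861 and 7312 in SDD, 2.84-fold above NIL (adjusted p = 0.0380), and fell 12.1-fold in the second step (adjusted p = 5.75e-04), which left it below NIL. Of the 38 tested interferon genes 30 rose in the first step and 36 fell in the second. Krt18 was 4.73-fold lower in SDD than in NIL (adjusted p = 0.00493) and 143-fold higher in SDDIR than in SDD (adjusted p = 1.18e-05).

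**Figure D3:**
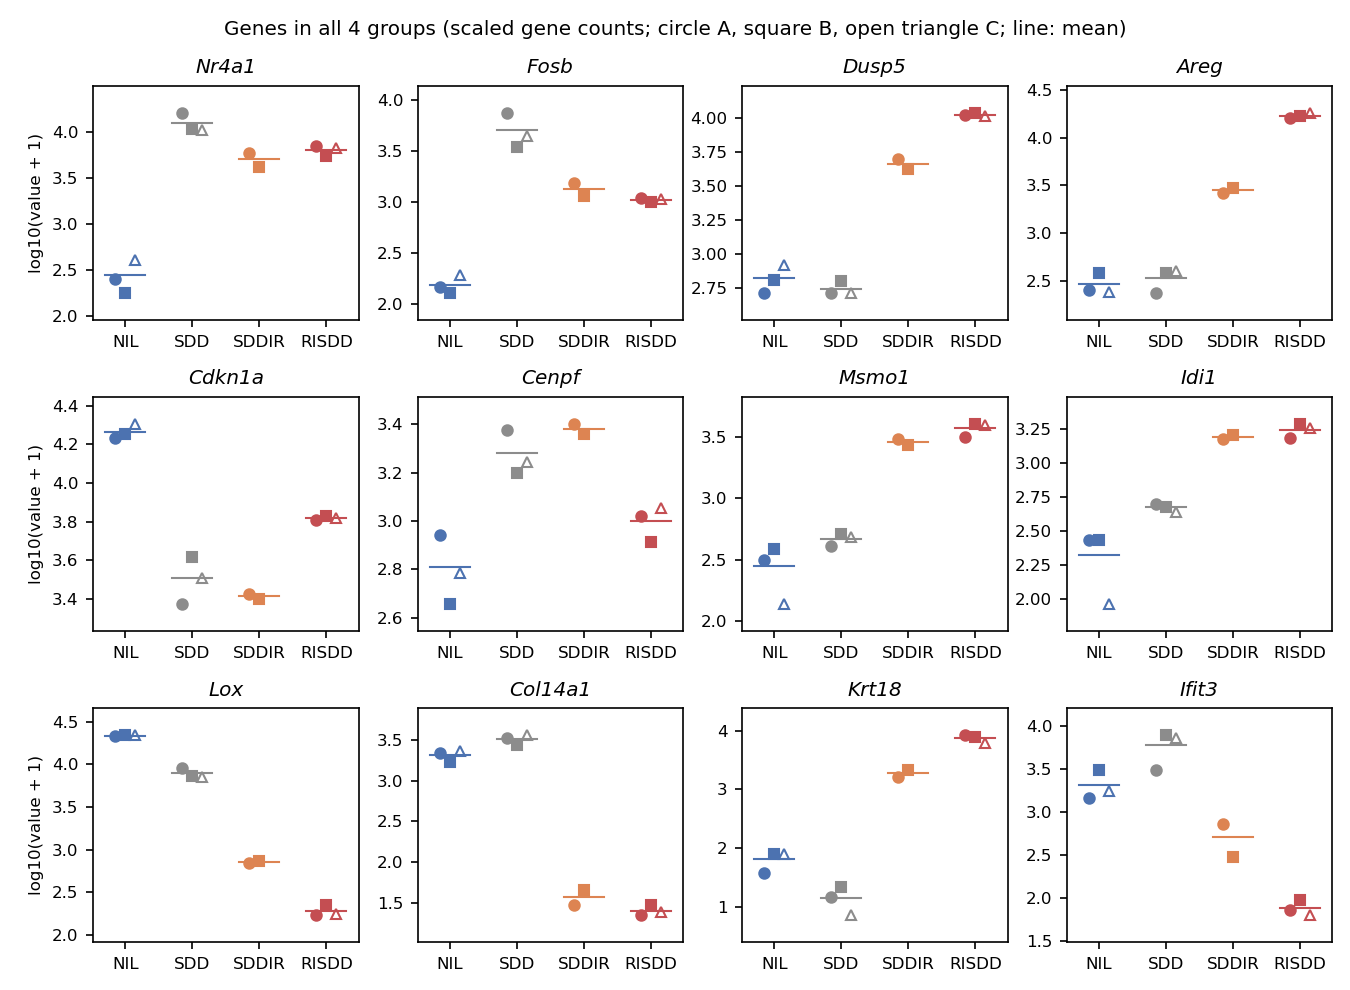
Values of 12 genes in all libraries of the 4 groups, as log10(value + 1), with circles for A, squares for B, open triangles for C and lines at the group means. Nr4a1 and Fosb peak in SDD, Cdkn1a is low in every group with p53DD, and Dusp5, Areg, Msmo1, Idi1 and Krt18 are high, and Lox, Col14a1 and Ifit3 low, in the groups with HRAS.

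SDDIR was also set against RISDD, where HRAS precedes the IRES. Between these cocktails 1377 genes differed (9.69%), 718 higher in SDDIR (5.05%) and 659 lower (4.64%). Of the 1226 genes that rose by 2-fold or more against NIL, 78 were higher and 89 lower in SDDIR than in RISDD, and 1059 had no call. Of the 1659 that fell, 222 were higher and 138 lower in SDDIR, and 1299 had no call. No call does not show that the cocktails act alike. Areg held 16221, 16910 and 18137 in RISDD, 6.08-fold above SDDIR (adjusted p = 4.99e-04). Dusp5 was 2.32-fold lower in SDDIR than in RISDD (adjusted p = 0.00425) and Krt18 3.91-fold lower (adjusted p = 0.0206). Lox was 3.79-fold higher in SDDIR (adjusted p = 2.39e-04) and Cenpf 2.43-fold higher (adjusted p = 0.0153), the latter with 17 other G2/M genes. Ptn, a heparin-binding growth factor, held 1390 and 1101 in SDDIR and 40.8, 32.4 and 38.7 in RISDD, the largest difference of those named by rule among genes higher in SDDIR (32.5-fold, adjusted p = 1.10e-05). The matrix gene Spon1 followed, at 863 and 645 against 35.9, 28.3 and 18.2 (27.2-fold, adjusted p = 1.25e-04). In the other direction, Krt20 held 0 and 0 in SDDIR and 183, 211 and 193 in RISDD, and the chemokine receptor gene Ccr1 9.32 and 9.48 against 407, 639 and 642 (log2 difference -5.73, adjusted p = 0.00151). Cdh1 held 71.7, 314 and 198 in RISDD, where SDDIR had 0 and 4.74 (adjusted p = 0.00304).

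Without NIL C, SDDIR against NIL changed 6899 genes (48.6%), 3396 higher (23.9%) and 3503 lower (24.7%). Of the 4759 genes changed with all libraries 2117 of the 2175 higher and 2513 of the 2584 lower kept their call, and 0 changed direction. With only NIL and SDDIR fitted 1590 genes changed, 509 higher and 1081 lower. Leaving out SDDIR A or SDDIR B gave 2343 or 2595 genes, fits in which the lone SDDIR library is assumed to vary like the other groups.

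**Figure D4:**
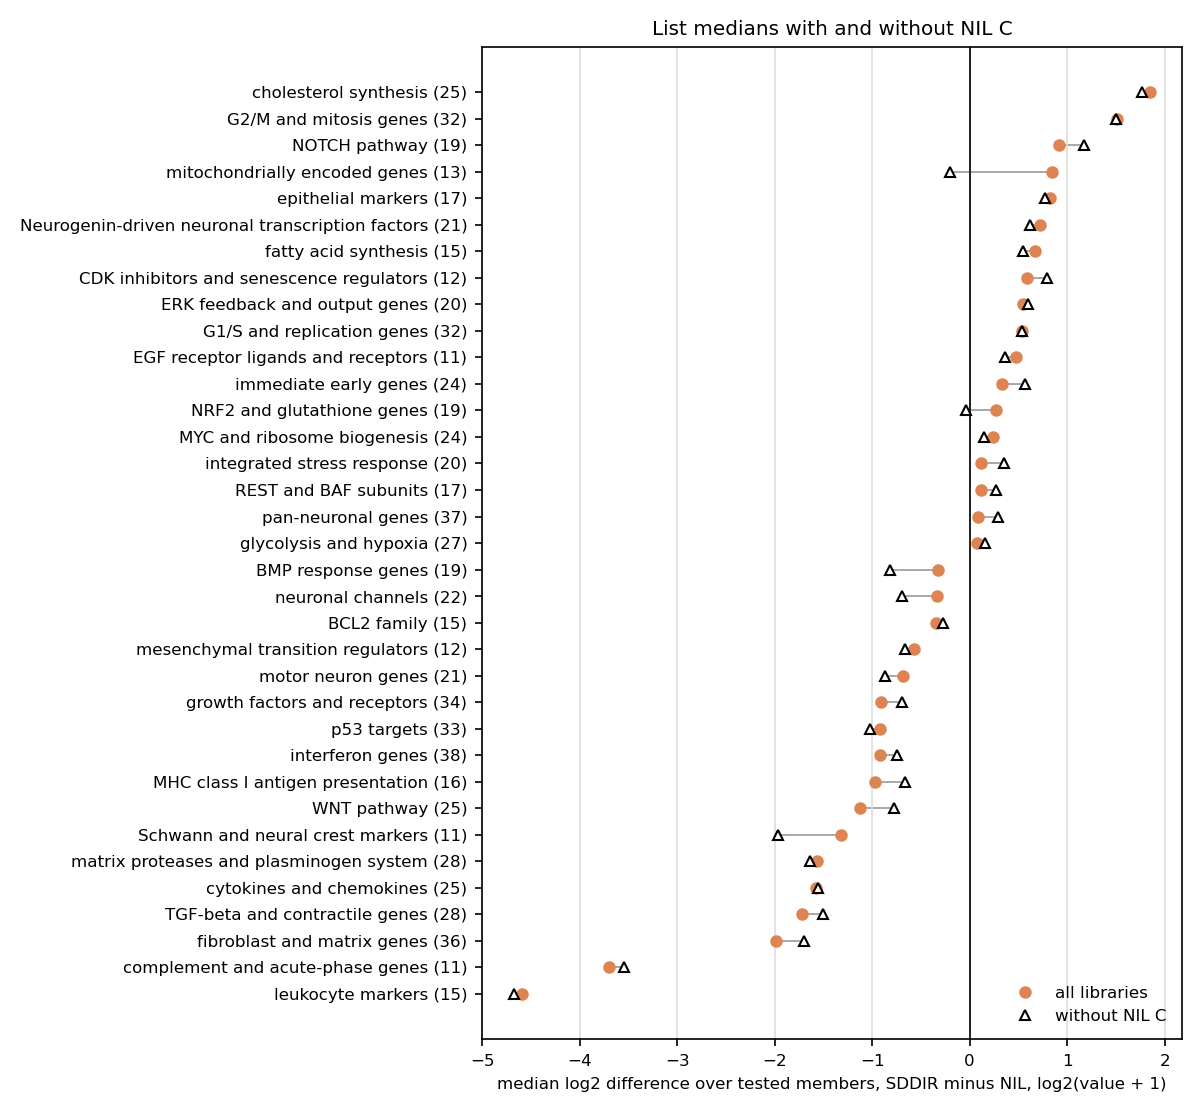
Median log2 difference of SDDIR minus NIL over the tested members of each list with at least 10 of them (number in brackets), with all libraries (circles) and without NIL C (triangles), on the log2(value + 1) scale. The mitochondrially encoded genes cross 0, from 0.84 to -0.20, and so does the list of NRF2 and glutathione genes, from 0.27 to -0.03, while cholesterol synthesis moves from 1.85 to 1.77 and fibroblast and matrix genes from -1.99 to -1.70.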

How the data were processed

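RNA-seq libraries of sorted cells (polyA RNA, directional kit, per the labels' protocols) were analysed from the deposited matrix of 23077 genes. The submitters' processing notes list Trim Galore 0.6.10, Salmon 1.10.3 and the build GRCm39, and the sources used here name no scaling step. What the authors deposited is a signal, each gene's count over a constant of its library: in each library 100% of values were whole multiples of 1 step per library (tolerance 0.001), which gave the reads behind them. Of its 12 value columns 1, a repeat of SDDIR B, was not used.

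The 14207 genes that reached a value of 10 in 3 or more libraries were fitted on log2(value + 1) in limma 3.58.1 (R 4.3.3), with trend and robust moderation, over all 4 groups. Genes named are the delivered factors, the 12 largest rises and falls that passed, reached a mean of 100 in 1 of the groups and did not overlap, from each of 38 lists up to 4 members that passed and 2 that did not, and 6 each way against RISDD; Plk3 and further list members or cell type markers were named after their values were seen. The comparison and lists were chosen with earlier results of these data known. Lists are described by counts and medians, with no set test. In simulated data for SDDIR against NIL over 14207 genes, 44 of 100 genes changed 2-fold and 91 of 100 changed 4-fold were recovered, with 9 false among 144 calls. Only these genes were changed, all with a mean of at least 100, and each gene had the same dispersion in every library. In the real data far more genes passed and NIL C stood apart, so these rates need not hold there. Alternatives were other scalings, pseudocounts, filters and moderation, array weights, a replicate block, only NIL and SDDIR, each library left out, and edgeR 4.0.16 and DESeq2 1.42.0 on recovered reads without RISDD B. Floors are 3 reads over a group, and intervals are exact at 95%. Some genes that the rule names are not reported here.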

Additional observations from a re-analysis of the deposited data

How the results depend on the processing

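The count of changed genes (4759) was 1590 with only NIL and SDDIR fitted, and that of genes changed by 2-fold or more (2885) was 1500. With 1 library left out the counts ranged from 2343 to 6899 and from 1869 to 3304. Other alternatives stayed within 1.5 times, among them edgeR (3987), DESeq2 (5097), quantile scaling (5009, of which 2531 higher) and array weights (5245). No scaling moved the median of all tested genes by over 0.1. With the letter of the replicate as a block, 4462 genes changed (2753 by 2-fold or more); the deviations of same-lettered NIL and SDDIR libraries had correlations of 0.124 (A) and 0.069 (B). Over all groups same-lettered pairs lay between 0.000225 and 0.271 and other pairs between -0.198 and 0.137. Not every same-lettered pair was above 0.1, so the letters were not taken as pairs. These values do not settle the pairing: the deviations of SDDIR A and B mirror each other, and the letter of SDDIR B is open. Of 142 named genes that passed, 101 passed under all 25 alternatives. Calls were lost for 35 with only NIL and SDDIR fitted, 21 without SDDIR A, 27 without SDDIR B and 6 without NIL C. The sign turned under some alternative for 0 of these 142 and for 26 of the 84 named genes that did not pass, 22 of them with a library left out. Of these 26, Phgdh passed with the turned sign, and its value ranged from -0.25 without NIL B to 0.34 without NIL C on the log2 scale (adjusted p = 0.0362 for the latter). Of 1900 counts of list members 211 moved by over 1.5 times, 36 of them with only NIL and SDDIR fitted. Scaling to ERCC spike-ins was not run. With 2 SDDIR libraries, changes under 2-fold are the least certain.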
